A study of Mus musculus with 6 samples.

Results

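The circadian clock genes Bmal1, Clock, Per1, Per2, Per3, Cry1, Cry2, Nr1d1, Nr1d2 and Dbp were examined in hematopoietic stem cells (HSCs), from which every blood lineage arises. They were chosen by name as core parts of the clock, and all 10 were found among the 27198 genes of the deposited table. HSCs were sorted as lineage-negative, Sca-1-positive, c-Kit-positive, CD34-negative and Flk2-negative (CD135-negative) cells from wild-type male C57BL/6 mice aged 8 to 10 weeks. Control (Ctrl) mice received vehicle. The l-FA mice were injected intraperitoneally with ferulic acid (FA), a plant phenolic acid, once a day over 30 days, each dose being 50 mg/kg. Each group had 3 libraries. Mice were kept in cycles of 12 h light and dark. The clock time of bone marrow collection and the numbers of mice and cells behind each library are not given in the sources used here, so p-values measure only the spread between libraries, which may be technical.

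The clock of mammalian cells is a loop of transcription and repression. BMAL1 and CLOCK bind E-box sequences as a pair and switch on the Per and Cry genes, whose proteins return to the nucleus and inhibit the pair. The same pair switches on Nr1d1 and Nr1d2, which encode the nuclear receptors REV-ERBα and REV-ERBβ and repress Bmal1, and Dbp, which encodes an activator that binds D-box sequences. In tissues sampled over the day, the RNAs of Nr1d1, Dbp and the Per genes peak in the opposite part of the cycle from Bmal1. In bone marrow, release of HSCs into the blood is known to follow the time of day.

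Motifs of the kinds known in clock gene control were searched by their letters within 250 bases before a transcription start. The matches are shown for the members that hold them, and whether each is a working site was not tested. RefSeq promoters on GRCm38.p6 were found for 9 of the 10 genes, with 13 start sites. None was found for Per2, which was therefore not searched. The motifs searched on both strands were the E-box CACGTG, its variant CACGTT, the D-box TTANGTAA, the element shared by REV-ERB and ROR proteins (RORE, its full consensus) and the cAMP response element TGACGTCA, none of which overlapped another in the windows shown. Capitals mark the motif, and a variant read on the opposite strand appears as AACGTG.

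Per1, chr11:69098771-69098800, plus strand, E-box 166 bases before the start: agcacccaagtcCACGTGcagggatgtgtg
Cry1, chr10:85185097-85185145, minus strand, variant 79 and E-box 60 bases before the start: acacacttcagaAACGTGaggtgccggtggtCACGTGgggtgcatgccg
Cry2, chr2:92434218-92434247, minus strand, variant 166 bases before the start: acacatggtgggAACGTGagggggcggagc
Per3, chr4:151044804-151044882, minus strand, D-boxes 205 and 158 bases before the start: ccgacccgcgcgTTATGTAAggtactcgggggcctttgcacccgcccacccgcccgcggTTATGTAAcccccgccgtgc

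The paralogs Nr1d1 and Nr1d2 are shown over the whole window because their RNAs changed in opposite directions. Nr1d1 held the variant E-box 28 bases before its start, and Nr1d2 held none of the motifs searched. Bmal1, Clock and Dbp also held none, and of these Clock fell while Bmal1 and Dbp did not pass. A link between motifs and changes was not tested.

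Nr1d1, chr11:98775378-98775627, minus strand: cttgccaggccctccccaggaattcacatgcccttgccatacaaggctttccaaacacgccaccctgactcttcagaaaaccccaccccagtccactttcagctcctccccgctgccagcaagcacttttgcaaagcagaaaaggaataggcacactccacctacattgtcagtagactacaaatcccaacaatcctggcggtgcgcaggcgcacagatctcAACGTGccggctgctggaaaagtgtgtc
Nr1d2, chr14:18239107-18239356, minus strand: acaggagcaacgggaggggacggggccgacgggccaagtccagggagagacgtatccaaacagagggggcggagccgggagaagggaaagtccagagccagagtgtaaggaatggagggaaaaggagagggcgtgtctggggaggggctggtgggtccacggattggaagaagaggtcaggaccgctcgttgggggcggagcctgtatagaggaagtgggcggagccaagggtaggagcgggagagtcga

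Of 32851 promoter windows of this length, 6.02% held the E-box, 3.85% the variant, 2.06% the D-box, 0.332% the RORE and 1.55% the cAMP response element. Among the 9 members, 2 held the E-box, 3 the variant, 1 the D-box and 0 either of the other motifs in this window. These are counts of genes, which had 13 windows between them, while the shares are per window, so they are not directly comparable. Sites past the window and looser forms of a motif were not searched, so a 0 does not show that a gene lacks the element. Such a match is a run of letters, and binding was not measured here.

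All 10 genes held enough counts to be tested, with 74 to 2082 counts in every library. Of these, 6 were lower in l-FA than in Ctrl, 1 was higher and 3 did not pass (edgeR's quasi-likelihood test, Benjamini-Hochberg adjusted p under 0.05 over 16520 genes). Fold changes compare counts scaled to library size by TMM, a factor that allows for differences in RNA composition. Clock, Per2, Per3, Cry1, Cry2 and Nr1d1 fell, Nr1d2 rose, and Bmal1, Per1 and Dbp did not pass. In the same test 25.0% of all genes were lower and 25.5% higher, 50.5% in all, so a change as such was common in these libraries. Across the 10 genes the median log2 fold change stood at -0.33, where that of all genes tested was 0.0035, and the median size of their change without its sign was 0.52 against 0.29. With a fold change above 2 required as well, Clock was called, and 11.8% of all genes were. The l-FA libraries lay outside the range of the Ctrl libraries for 9 of the 10 genes, where 60.3% of all genes tested did so. In sorted bulk cells, fewer cells of a type and less RNA per cell cannot be told apart.

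**Figure D1:**
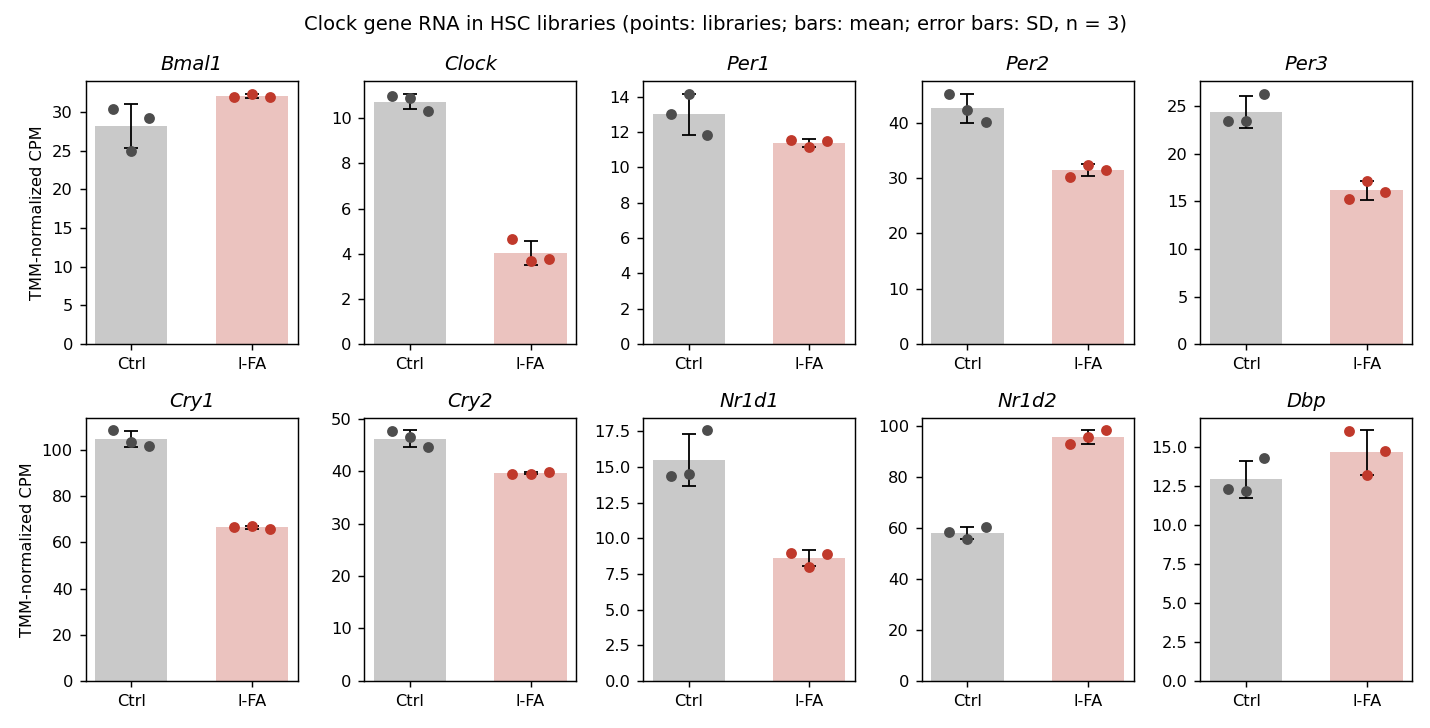
TMM-normalized CPM, the count scaled to library size (vertical axes from 0), of each clock gene in the 3 Ctrl and 3 l-FA libraries, with points for libraries, bars for means and error bars for SD. Clock falls from 10.7 to 4.04 CPM, Nr1d2 rises from 58.2 to 95.7 CPM, and the points of Dbp overlap between the groups.

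Gene positions are on GRCm39 as deposited. Among the activators, Clock fell and Bmal1 did not pass. Clock (ENSMUSG00000029238, chr5:76357715-76452639) encodes the partner of BMAL1 and had 11, 10.9 and 10.3 TMM-normalized CPM across the Ctrl libraries, in replicate order, against 4.67, 3.69 and 3.76 across the l-FA libraries. Every l-FA library was under every Ctrl library by a wide margin. The log2 fold change was -1.41 with a standard error of 0.12 (edgeR adjusted p = 0.000168), which left 37.7% of the Ctrl level. Clock was also the least covered of the 10 genes, with 203 to 211 counts in Ctrl and 74 to 98 in l-FA. The processed pseudogene Ube2n-ps1 lies within the listed span of Clock and had 660 to 823 counts in each library, and also fell (log2 fold change -0.24, standard error 0.052, edgeR adjusted p = 0.00923). Bmal1 (ENSMUSG00000055116, chr7:112806672-112913333) had 30.4, 25.0 and 29.2 CPM in Ctrl and 31.9, 32.4 and 31.9 in l-FA. The l-FA libraries were close together and just above the highest Ctrl library, while Ctrl library 2 was low. The log2 fold change of 0.18 (95% interval -0.01 to 0.38, edgeR adjusted p = 0.101) did not pass, and it passed with libraries scaled to their totals alone (0.26, edgeR adjusted p = 0.0352). Without Ctrl library 2 it was 0.10 (edgeR adjusted p = 0.183).

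The Period genes encode the PER proteins, which carry CRY proteins into the nucleus and start the repression. Per2 (ENSMUSG00000055866, chr1:91343704-91387046) had 45.2, 42.2 and 40.2 CPM in Ctrl and 30.2, 32.4 and 31.5 in l-FA, and Per3 (ENSMUSG00000028957, chr4:151088109-151129122) had 23.4, 23.4 and 26.3 in Ctrl and 15.2, 17.2 and 16.0 in l-FA. Both were lower in each l-FA library than in any Ctrl library. The log2 fold change was -0.44 for Per2 (standard error 0.061, edgeR adjusted p = 0.00126) and -0.59 for Per3 (standard error 0.079, edgeR adjusted p = 0.00109). Per1 (ENSMUSG00000020893, chr11:68986043-69000786), the member of the family known to respond fastest to outside signals, had 13.0, 14.1 and 11.8 CPM in Ctrl and 11.6, 11.1 and 11.5 in l-FA. The l-FA libraries lay under the Ctrl libraries by a narrow margin, and on the deposited FPKM scale the groups overlapped. Its log2 fold change of -0.19 (95% interval -0.40 to 0.02, edgeR adjusted p = 0.117) did not pass. Without Ctrl library 3 it passed (-0.26, edgeR adjusted p = 0.046), while it was -0.13 without Ctrl library 2 (edgeR adjusted p = 0.300) and -0.11 with library totals (edgeR adjusted p = 0.326).

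The Cryptochrome genes encode the main repressors of the BMAL1 and CLOCK pair. Cry1 (ENSMUSG00000020038, chr10:84967564-85020928) held an E-box and its variant in the window above. It had 109, 103 and 102 CPM in Ctrl, the highest of the 10 genes there, and 66.5, 67.0 and 65.7 in l-FA. The groups were far apart against the spread within them, and the log2 fold change was -0.66 (standard error 0.036, edgeR adjusted p = 4.01e-05). In l-FA, Nr1d2 was higher than Cry1 on this scale, with a mean of 95.7 CPM against 66.4. Cry2 (ENSMUSG00000068742, chr2:92233991-92264388) had 47.6, 46.5 and 44.5 CPM in Ctrl and 39.5, 39.5 and 39.8 in l-FA. Its fall was small, -0.22 on the log2 scale (standard error 0.044, edgeR adjusted p = 0.00558), and every l-FA library was under every Ctrl library. The ratio of Cry1 to Cry2 CPM was 2.23 to 2.29 in the Ctrl libraries and 1.65 to 1.70 in the l-FA libraries. The listed span of Cry2 overlaps the long noncoding RNA gene D930015M05Rik, whose count did not exceed 13.

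The REV-ERB genes moved in opposite directions. Nr1d1 (ENSMUSG00000020889, chr11:98658758-98666159) had 14.3, 14.5 and 17.6 CPM in Ctrl and 8.95, 7.98 and 8.91 in l-FA. Ctrl library 3 was high, and all l-FA libraries were well under all Ctrl libraries. The log2 fold change was -0.84 (standard error 0.11, edgeR adjusted p = 0.000925). Nr1d2 (ENSMUSG00000021775, chr14:4230569-4265642) had 58.5, 55.7 and 60.5 CPM in Ctrl and 92.9, 95.7 and 98.4 in l-FA. This was the single rise that passed among the 10 genes, 1.64-fold, or 0.72 on the log2 scale (standard error 0.044, edgeR adjusted p = 5.83e-05). The ratio of Nr1d2 to Nr1d1 CPM went from between 3.44 and 4.08 in the Ctrl libraries to between 10.4 and 12 in the l-FA libraries. Nr1d1 overlaps the thyroid hormone receptor gene Thra over 1075 bases of the listed spans. Thra had 147 to 170 counts in Ctrl and 152 to 171 in l-FA and did not pass (log2 fold change -0.04, standard error 0.099, edgeR adjusted p = 0.787).

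Dbp (ENSMUSG00000059824, chr7:45354512-45359627), among the genes with the strongest daily swing in many tissues, had 12.3, 12.2 and 14.3 CPM in Ctrl and 16.0, 13.2 and 14.7 in l-FA. The groups overlapped, and the log2 fold change of 0.18 (95% interval -0.07 to 0.43, edgeR adjusted p = 0.201) did not pass. Dbp overlaps the sphingosine kinase gene Sphk2 over 737 bases. Sphk2 had 1426 to 1593 counts and did not pass either (log2 fold change -0.06, standard error 0.055, edgeR adjusted p = 0.395). The counting tool's use of strand is not given in the sources used here, so reads in the shared bases of these gene pairs cannot be assigned with certainty.

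The coefficient of variation of CPM was above that from counting error alone for 9 of the 10 genes in Ctrl and for 4 of the 10 in l-FA. The chi-square of 3 libraries passed its 95% limit of 5.99 in 3 of the 20 gene and group combinations, namely Bmal1 in Ctrl (11.7), Nr1d1 in Ctrl (9.06) and Dbp in l-FA (6.02). The coefficient of variation was 10.2% for Bmal1 in Ctrl, where counting error alone gives 4.29%, and 0.835% in l-FA, where it gives 3.92%. Over all genes tested the median chi-square of 3 libraries was 3.04 in Ctrl and 2.84 in l-FA, where counting error gives 1.39. A spread above counting error was thus general in these libraries and not particular to the clock genes. Counting error covers only part of the error of amplified cDNA.

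Levels were compared between genes per length, on the deposited FPKM scale. In Ctrl the order was Cry1 (24.7 ± 0.776 FPKM, SD, n = 3), Nr1d2 (8.24 ± 0.379), Per2, Cry2, Nr1d1 (4.30 ± 0.526), Bmal1, Dbp, Per3, Per1 and Clock (0.469 ± 0.0133). The libraries of Per2 and Cry2 overlapped, as did those of Dbp and Per3, and the other neighbours did not. In l-FA, Cry1 (16.6 ± 0.176 FPKM) and Nr1d2 (14.3 ± 0.368) lay close together. Cry2, Per2 and Bmal1 (3.87 ± 0.0260) followed, then Dbp, Nr1d1 (2.52 ± 0.167), Per1, Per3 and Clock (0.186 ± 0.0259). Here Dbp overlapped Nr1d1 and Per1 overlapped Per3. Nr1d1 thus lay above Bmal1 in Ctrl and under it in l-FA.

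**Figure D2:**
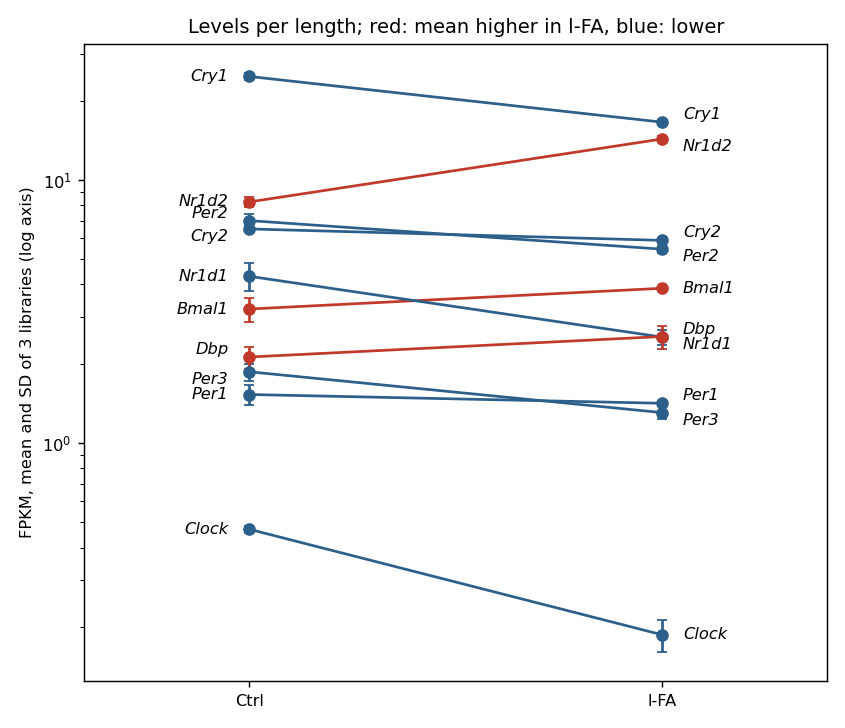
Mean FPKM of each clock gene in Ctrl and l-FA on a log axis, with SD over 3 libraries as error bars, in red where the l-FA mean was higher and in blue where it was lower. Cry1 and Nr1d2 converge from 24.7 and 8.24 FPKM in Ctrl to 16.6 and 14.3 in l-FA, and the lines of Nr1d1 and Bmal1 cross.

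Whether the phase of the clock differed between the groups was then asked. With a single sampling of each group and no stated clock time, no phase could be fitted, and differences in collection time, phase, amplitude and mean level cannot be told apart. The values of genes that peak in opposite parts of the cycle were therefore set beside Bmal1 in each library. The log2 ratio of Nr1d1 to Bmal1 CPM averaged -0.87 ± 0.19 for Ctrl and -1.90 ± 0.11 for l-FA (SD, n = 3), a difference of -1.03. The ratio of Per3 to Bmal1 differed by -0.78, that of Per2 by -0.63 and that of Per1 by -0.38, and in each case the l-FA libraries lay under all Ctrl libraries. Without Ctrl library 2 the difference for Per1 was -0.23. In contrast, the log2 ratio of Nr1d2 to Bmal1 averaged 1.05 ± 0.11 for Ctrl and 1.58 ± 0.041 for l-FA (SD, n = 3), with all l-FA libraries above. The ratio of Dbp to Bmal1 was -1.13 ± 0.16 and -1.14 ± 0.15, and the libraries overlapped. The ratios thus did not move in a common direction, and they share Bmal1, so they are not independent of each other.

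**Figure D3:**
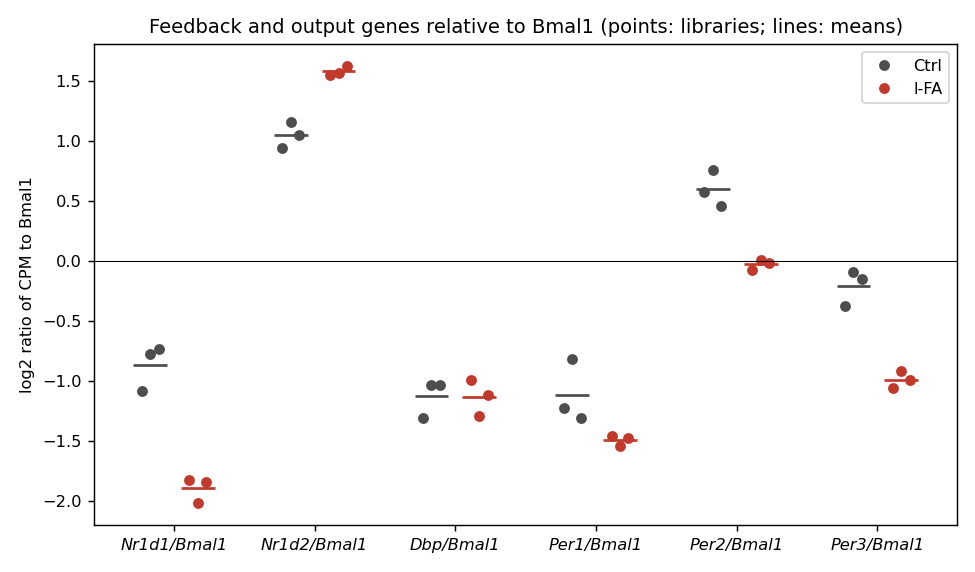
Log2 ratio of the CPM of 6 feedback and output genes to that of Bmal1 in each Ctrl and l-FA library, with lines at the group means. Nr1d1, Per1, Per2 and Per3 lie lower in l-FA, Nr1d2 lies higher, and Dbp overlaps.

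The same question was put to wider lists of each arm. These include all the members above except Cry2, so they partly repeat the values already given and are not a separate check. Of 10 genes driven through E-boxes and known to peak from day to dusk (Per1, Per2, Per3, Nr1d1, Nr1d2, Dbp, Ciart, Tef, Bhlhe40 and Bhlhe41), 9 could be tested, 5 fell, 1 rose and 3 did not pass, with a median log2 fold change of -0.44. The second list held 5 genes of the arm repressed by REV-ERB (Bmal1, Clock, Npas2, Cry1 and Nfil3), of which Bmal1 peaks in the opposite part. Of these, 3 fell, 0 rose and 2 did not pass, with a median of -0.66, which is the value of Cry1 itself. Cry1 is also switched on by BMAL1 and CLOCK, as given above, so the lists are not cleanly opposed. No gene of the second list rose at an unadjusted p under 0.05 in edgeR or at an adjusted p under 0.05 in DESeq2 either. Both lists held more falls than the 25.0% among all genes, and their medians had the same sign.

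The other transcription factors of the clock loops were examined next, of which 7 of 10 could be tested, 4 fell and 1 rose. Of all genes tested, 25.0% fell and 25.5% rose. Rora, which encodes an activator that competes with the REV-ERB proteins for the same element, rose from 8.61 ± 0.112 to 15.1 ± 1.06 CPM (SD, n = 3), or by 0.81 on the log2 scale (standard error 0.080, edgeR adjusted p = 0.000326). Rorb, which did not pass the filter, had 0 counts in all Ctrl libraries and 9 to 15 in l-FA, at least 3.98-fold higher against a floor of 3 counts per library.

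Among the repressors and D-box factors, Bhlhe40, a repressor at E-boxes, had a log2 fold change of -0.66 (edgeR adjusted p = 0.00245), and Nfil3, a repressor at D-boxes, of -0.67 (edgeR adjusted p = 0.0057). Ciart, an inhibitor of the BMAL1 and CLOCK pair with 3 E-boxes in its window, fell by 0.58 on the log2 scale (edgeR adjusted p = 0.0431). Hlf, a relative of Dbp that also serves in HSC self-renewal, fell by 0.31 (edgeR adjusted p = 0.00195). Tef, the other relative of Dbp, had a log2 fold change of 0.52 that did not pass (standard error 0.21, edgeR adjusted p = 0.0814), and its spread within groups was wide (37.5 ± 8.95 CPM for Ctrl, 53.8 ± 10.6 CPM for l-FA, SD, n = 3). Npas2, which can stand in for Clock, had 10 to 23 counts and did not pass (log2 fold change -0.05, standard error 0.35, edgeR adjusted p = 0.925). Bhlhe41 had at most 2 counts and was not tested, and Bmal2 was not analysed here.

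**Figure D4:**
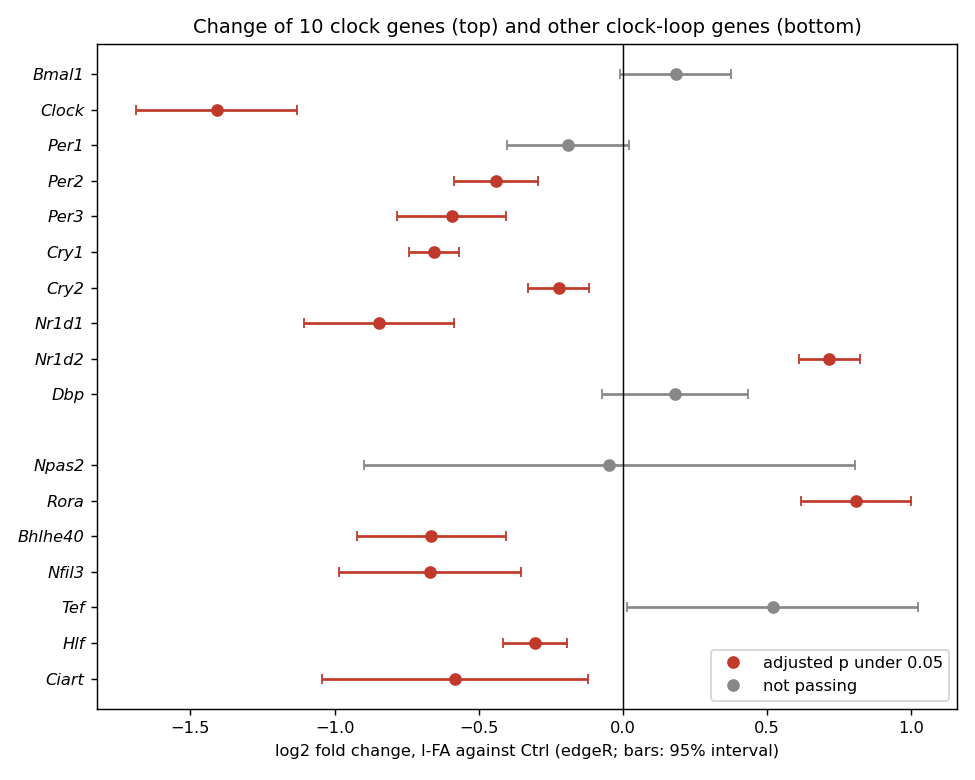
Log2 fold change of l-FA against Ctrl with its 95% interval from edgeR for the 10 clock genes (top) and the 7 other clock-loop genes tested (bottom), in red where the adjusted p was under 0.05. Nr1d2 and Rora lie to the right of 0 in red, and Clock lies farthest to the left.

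Of 11 genes listed as linked to the turnover or activity of PER and CRY proteins, all were tested, 5 rose, 3 fell and 3 did not pass. Of all genes tested, 25.5% rose and 25.0% fell. The changes were mostly small. Timeless rose by 0.46 on the log2 scale (edgeR adjusted p = 0.000268), and Btrc and Fbxw11, which encode the ubiquitin ligase subunits that recognise PER, rose by 0.28 and 0.25 (edgeR adjusted p = 0.00147 and 0.00103). The PER kinase genes Csnk1d and Csnk1a1 rose by 0.11 and 0.16 (edgeR adjusted p = 0.0203 and 0.00365), while Csnk1e was at 67.5 CPM in both groups. Gsk3b, which encodes another kinase of clock proteins, and Tipin, the partner of Timeless, fell by 0.29 and 0.25 (edgeR adjusted p = 0.00545 and 0.000732). Fbxl21, which encodes a CRY ligase subunit, fell from 1.42 to 0.279 CPM, with 5 to 6 counts per library in l-FA (-2.33 on the log2 scale, standard error 0.26, edgeR adjusted p = 0.000559).

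Of 9 genes known as clock outputs, 5 fell, 0 rose and 4 did not pass in edgeR. Of all genes tested, 50.5% were called, 25.0% lower and 25.5% higher, so the share called was near that of all genes. At an unadjusted p under 0.05, 1 gene rose in edgeR, and 1 rose at an adjusted p under 0.05 in DESeq2. Alas1, the first enzyme of heme synthesis, fell from 605 ± 9.49 to 172 ± 6.74 CPM (SD, n = 3), or -1.81 on the log2 scale (standard error 0.034, edgeR adjusted p = 1.06e-06). Noct, which encodes a phosphatase with strong daily rhythm in liver, fell by 1.38 on the log2 scale (edgeR adjusted p = 0.000245), and Ppard, a lipid-sensing nuclear receptor, by 1.57 (edgeR adjusted p = 0.000539). Cxcr4, the chemokine receptor that holds HSCs in the marrow, had 65 to 80 counts in Ctrl and 66 to 72 in l-FA, and its log2 fold change of -0.17 did not pass (edgeR adjusted p = 0.362). Wee1, which encodes a kinase that delays mitosis, fell by only 0.10 (edgeR adjusted p = 0.0494).

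Signals known to reset the clock through the Per genes were read from their other target genes. All 9 immediate early genes of the CREB and serum response pathways rose, among them Egr1 by 1.12 and Fos by 0.84 on the log2 scale (edgeR adjusted p = 1.04e-06 and 3.95e-06), and DESeq2 called 8 of them higher. Nr4a1 rose by 0.87, Junb by 0.68 and Nr4a2 by 0.62 (edgeR adjusted p = 6.88e-06, 3.74e-06 and 0.0116). None fell in edgeR, at an unadjusted p under 0.05 or in DESeq2. Per1, itself a target of CREB, did not pass, as given above. Of 8 glucocorticoid-responsive genes, 3 fell, 1 rose and 4 did not pass, a share called near the 50.5% among all genes. Fkbp5 fell by 1.23 and Klf9 by 0.74 on the log2 scale (edgeR adjusted p = 3.4e-05 and 0.000372), Errfi1 fell from 86 to 101 counts in Ctrl to 4 to 7 in l-FA, and Dusp1 rose by 0.59 (edgeR adjusted p = 0.000132). Of 6 temperature-responsive genes, 2 rose and 2 fell, where 25.5% of all genes rose and 25.0% fell. Cirbp, the cold-inducible RNA-binding protein gene, rose by 0.78 (edgeR adjusted p = 1.46e-05). The heat-inducible chaperone gene Dnajb1 also rose, by 0.44 (edgeR adjusted p = 4.22e-05), and the chaperone genes Hspa8 and Hspa1b fell, at -0.32 and -0.63 (edgeR adjusted p = 0.000166 and 0.0193). The part of these signals in the clock gene values was not tested.

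Cells of other kinds were read from marker lists in the same libraries. The 11 HSC genes were all present and summed to 1817 to 1892 CPM in Ctrl and 2101 to 2123 in l-FA. Of them, 7 were higher and 0 lower in edgeR, at an unadjusted p under 0.05 and in DESeq2. Of all genes tested in edgeR, 25.5% were higher and 25.0% lower at an adjusted p under 0.05. RNA of the antigens excluded by the sort was abundant, with Cd34 at 1343 CPM in Ctrl and 1579 in l-FA and Flt3 at 759 and 1183. The 10 granulocyte and monocyte genes summed to 22760 to 23690 CPM in Ctrl and 5659 to 5975 in l-FA, none of them at or under 3 counts in every library, and all 10 fell. Erythroid genes summed to 67.9 to 69.8 CPM in Ctrl and 68.5 to 70.2 in l-FA, B-cell genes to 54.9 to 55.6 and 63.2 to 66.0, and megakaryocyte genes to 186 to 194 and 264 to 273. T and NK genes summed to 546 to 567 CPM in Ctrl and 302 to 313 in l-FA. A single gene made up most of both lymphoid sums, Nkg7 with 555.6 CPM in Ctrl and 306.9 in l-FA, and Cd79b of B cells with 53.0 and 61.7. The same held for Mpo in the granulocyte and monocyte sum (18540 and 4938 CPM) and Itga2b in the megakaryocyte sum (173.1 and 239.9). Kit made up most of the HSC sum (1067 and 1157 CPM), and Car1 of the erythroid sum (39.11 and 39.85). Of the 5 megakaryocyte genes, 2 rose and 3 did not pass in edgeR. Of the defining markers, Pax5 of B cells had at most 1 count and Cd3e of T cells at most 10. The part of such cells in the clock gene values was not tested.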

How the data were processed

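RNA of sorted HSCs was measured in 3 Ctrl and 3 l-FA libraries of amplified cDNA (SMART-Seq HT, KAPA Hyper Prep, Illumina NovaSeq). Raw counts of each gene were deposited for every library, beside FPKM values, which the authors scaled to gene length and library size. The submitters' processing notes name HISAT2, SAMtools 1.3.1, StringTie, edgeR and the build GRCm39, and the counting tool, its use of strand and the annotation release are not given in the sources used here. Total counts ranged from 19287735 to 20380610 per library.

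Tests used edgeR 4.0.16 under R 4.3.3 (TMM, filterByExpr, glmQLFit, glmQLFTest, no block) and adjusted by Benjamini-Hochberg over the 16520 genes kept. Standard errors were derived as the size of the log2 fold change over the root of the F statistic. The code was tested on simulated data. Samples were grouped by their labels. Between pairs of libraries, the median chi-square over genes was 0.888 to 1.07 within groups and 8.20 to 8.83 between groups, where counting error gives 0.455. Alternatives were DESeq2 1.42.0, RLE, upper-quartile and total-count scaling, other low-count filters, the replicate number as a block and each library left out. Promoter sequences came from RefSeq.

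The members and gene lists were chosen with earlier results of these data known. Named were the 10 genes, the tested genes of the clock loops and, of other lists, genes past an adjusted p of 0.05 with a fold change above 1.5 or needed for a role. Where groups of markers were read, their summed CPM is given. Kit, Car1 and Itga2b were named for their share of such a sum, with values in view. Cd34, Pax5, Cd3e, Nkg7, Cd79b, Dnajb1, Gsk3b, Tipin, Timeless, Btrc, Fbxw11, Csnk1d, Csnk1a1, Csnk1e, Wee1, Cxcr4 and Hspa8 were named for their roles with values in view, as were genes overlapping a member. Some items are not reported here and were left out of the lists, while the fit kept all genes.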

Additional observations from a re-analysis of the deposited data

How the results depend on the processing

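The direction of change was the same for all 10 clock genes in the 13 alternative settings run, and 128 of the 130 values kept their side of the threshold. The exceptions were Per1 without Ctrl library 3 and Bmal1 with library totals without TMM, a scaling chosen after seeing the data, under which 2 clock genes rose in place of 1. The number of clock genes called was 7 with DESeq2, RLE and upper-quartile scaling, both other filters and the replicate block, and 7 to 8 with 1 library left out. Same-numbered libraries did not deviate together over all genes (correlations from -0.05 to 0.019). With 3 libraries per group this cannot show whether libraries were paired, and neither labels nor methods state a pairing. The block left 7405 of all genes called, against 8336 without it. The difference in the Dbp to Bmal1 ratio, -0.0097 on the log2 scale, ranged from -0.0999 to 0.071 with 1 library left out and turned positive at 0.0348 without Ctrl library 2, 0.0361 without Ctrl library 3 and 0.071 without l-FA library 2. The cause was not tested. Npas2, Rorb, Bhlhe41, Ciart, Fbxl21, Ppard, Cxcr4 and Hspa1b had under 100 counts in every library, which limits the precision of their changes.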
